A study of Mus musculus with 6 samples.

Results

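The 10 genes described here mark the endothelium, the cell layer that lines blood vessels: the receptor genes Kdr, Flt1, Tek, Tie1 and Eng, the adhesion and surface genes Pecam1, Cdh5 and Emcn, and the transcription factor genes Sox17 and Sox18. They were chosen by name, as every probe whose platform symbol is one of these, which gave 16 of the array's 45281 probes and 10 of its 19057 named genes. The arrays held RNA of the calvaria, the bones of the skull vault, from FVB/N pups 3 days after birth. There were 3 wild-type samples (WT) and 3 with overexpression of the microRNA miR-34c (TG), titled a gain of function in the osteoblast, the cell that makes bone. The sources used here do not give the promoter that drives miR-34c, the number of founder lines, the sex of the pups or whether a sample pools animals. Sex-linked transcripts had the pattern of females on TG replicates 2 and 3 and of males on the other arrays. The labels call the samples biological replicates, so the p-values measure the spread between these samples. No probe on the array was named for Mir34c, so its level was not checked here.

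Endothelial cells respond to vascular endothelial growth factor (VEGF) through the receptor tyrosine kinases encoded by Kdr (VEGFR2) and Flt1 (VEGFR1, which binds the ligand strongly and limits signalling), and to angiopoietins through Tek (TIE2) and its partner Tie1. Pecam1 (CD31) and Cdh5 (VE-cadherin) hold neighbouring endothelial cells together, Emcn encodes the surface sialomucin endomucin, and Eng encodes a co-receptor for TGF-beta and BMP ligands. Sox17 and Sox18 belong with Sox7 to the SoxF transcription factors of developing arteries and lymphatic vessels. Blood vessels grow into forming bone, where strong Emcn and Pecam1 staining marks a capillary type that lies close to bone-forming cells.

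The sequence behind the genotype is the microRNA, and the RefSeq table (GRCm38.p6) held mature sequences of the 3p arm. They are shown to compare the seed of this arm (bases 2 to 8, in capitals) with that of its neighbour in the cluster. The other arm, miR-34c-5p, is named only, and its seed is not the one shown. Neither arm was measured here. The miR-34c-3p gene segment lies at chr9:51103044-51103065 and that of miR-34b-3p at chr9:51103574-51103595, both on the minus strand. The 3p seed is shared by the pair.
mmu-miR-34c-3p: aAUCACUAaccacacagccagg
mmu-miR-34b-3p: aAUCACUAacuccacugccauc

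Promoter windows of 250 bases before the gene's start were found for 6 of the 10 genes (Emcn, Eng, Flt1, Kdr, Tek and Tie1) in the RefSeq table of the same build; Pecam1, Cdh5, Sox17 and Sox18 are named only. Flt1 and Tie1 are printed because their signals had the highest correlation over the arrays, and Tek as the other angiopoietin receptor gene; they were chosen after the values were seen. Capitals mark AGGAAG (or CTTCCT on the other strand), a core bound by ETS factors of endothelial cells, and ACAAT (or ATTGT), a core bound by SOX factors. The Flt1 window is chr5:147726012-147726261 (minus strand), Tie1 is chr4:118489850-118490099 (minus strand) and Tek is chr4:94739039-94739288 (plus strand).
Flt1: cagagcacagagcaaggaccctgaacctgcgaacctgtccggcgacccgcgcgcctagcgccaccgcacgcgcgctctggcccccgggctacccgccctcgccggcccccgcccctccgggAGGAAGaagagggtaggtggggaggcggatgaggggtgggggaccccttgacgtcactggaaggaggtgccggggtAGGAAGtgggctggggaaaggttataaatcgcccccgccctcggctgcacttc
Tie1: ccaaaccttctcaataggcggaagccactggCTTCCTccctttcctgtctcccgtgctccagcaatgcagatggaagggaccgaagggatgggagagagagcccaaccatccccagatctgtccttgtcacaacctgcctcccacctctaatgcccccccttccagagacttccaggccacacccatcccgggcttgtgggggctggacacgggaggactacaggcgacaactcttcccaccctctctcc
Tek: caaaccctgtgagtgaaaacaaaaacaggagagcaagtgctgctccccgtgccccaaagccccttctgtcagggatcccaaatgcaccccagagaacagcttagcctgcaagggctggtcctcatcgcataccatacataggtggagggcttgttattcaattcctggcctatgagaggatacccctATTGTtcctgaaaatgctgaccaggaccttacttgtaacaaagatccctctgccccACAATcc
AGGAAG on either strand was in 4 of the 6 windows (Emcn, Eng, Flt1 and Tie1) and in 29.5% of 32851 promoter windows of this length. ACAAT on either strand was in 2 of the 6 (Emcn and Tek), against 27.7%. These matches describe letters in a window, and no binding was measured here.

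Of the 16 probes, 12 were detected on all 6 arrays, where detected means a deposited detection p-value under 0.05 against the array's negative controls. These 12 probes stood for 9 genes, all but Kdr. Both Kdr probes were undetected on every array. ILMN_2665788, for the Kdr RefSeq transcript, had intensities of 135, 131 and 115 in WT and 130, 125 and 125 in TG. The other Kdr probe, ILMN_2572649, had 113 to 126. The 95th percentile of the negative controls was 129.9 to 135.8, so only a bound exists for Kdr in calvaria, which does not show that the transcript was missing. The highest Kdr signal, on WT replicate 1, had a detection p-value of 0.0502, just outside the threshold.

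One further probe each of Flt1 and Pecam1 was dim. Flt1 probe ILMN_2732721 had intensities of 116 to 127 and was detected on 0 of 6 arrays, while Flt1 probe ILMN_1227926 had 662 to 853. Pecam1 probe ILMN_1226690, annotated to a cDNA clone, had 120, 122 and 121 in WT and 132, 135 and 134 in TG. Its TG values all lay above its WT values, yet it was detected on 1 array (TG replicate 2) and so was not tested with the others. Fitted without the filter on dim probes, Pecam1 ILMN_1226690 had a log2 fold change of 0.39 ± 0.09 (SE; limma, unadjusted p = 0.00412, adjusted p = 0.9997). In that fit 1780 of 45281 probes had an unadjusted p under 0.05. The other dim probes had -0.01 (Flt1 ILMN_2732721), -0.03 (Kdr ILMN_2665788) and 0.05 (Kdr ILMN_2572649). The brighter Pecam1 probes did not separate the groups.

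**Figure D1:**
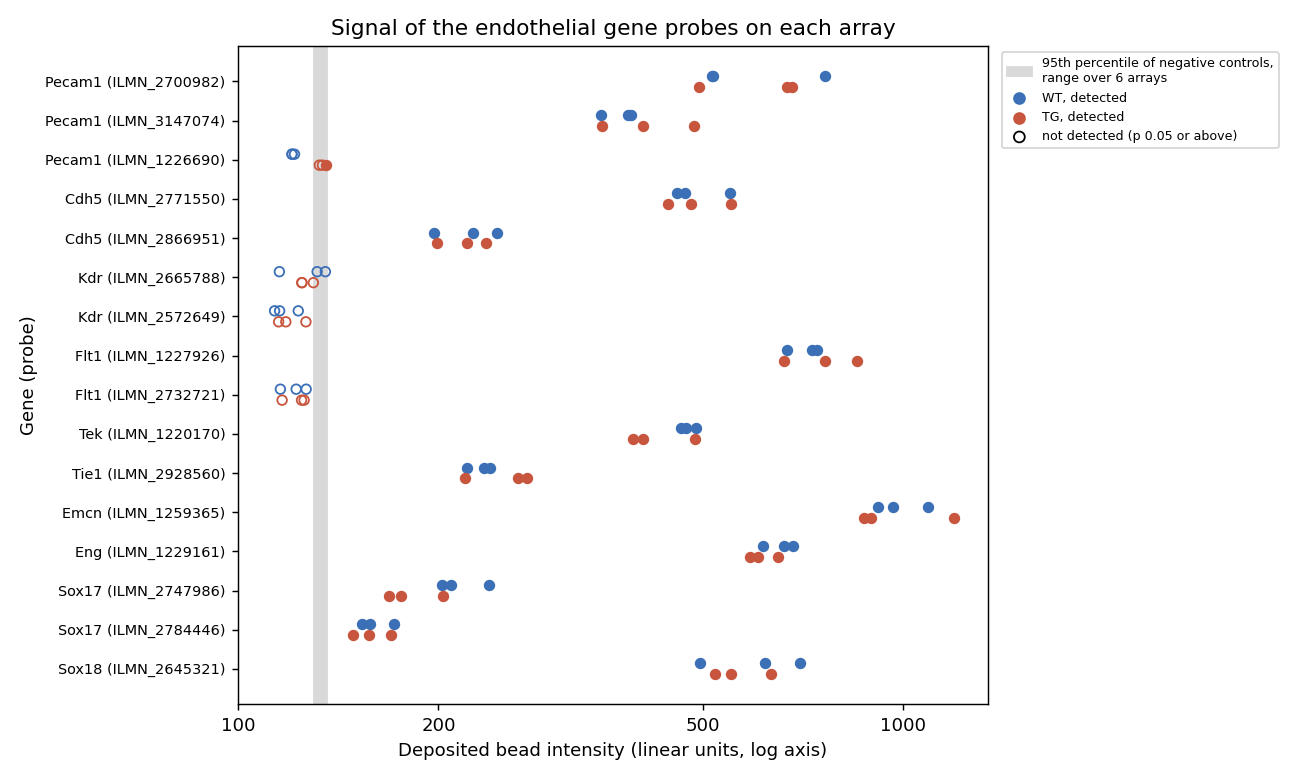
Deposited bead intensity (log axis) of all 16 probes on each array, with WT in blue and TG in red, filled where detected; the grey band spans the 95th percentile of the negative controls over the 6 arrays (129.9 to 135.8). Both Kdr probes, Flt1 ILMN_2732721 and Pecam1 ILMN_1226690 lie at the band or below it, and the other 12 probes lie above it on every array.

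The comparison of TG with WT asked whether vessel transcripts differ in calvaria when miR-34c is raised. No endothelial probe passed the test. With limma and Benjamini-Hochberg adjustment over all 20632 probes tested, 0 of the 12 had an adjusted p under 0.05, against 0% of all probes. At an unadjusted p under 0.05 there was 1 of 12, a Sox17 probe, against 3.44% of all probes. Log2 fold changes (TG minus WT, on normalised log2 intensity) were positive for 4 probes and negative for 8. By the brightest probe of each gene, 3 genes were positive and 6 negative with a median of -0.02. Over the 11204 genes tested, 50.5% were negative and the median was -0.001. The groups overlapped for 11 of the 12 probes and did not overlap for 1, a probe of Sox17, lower in TG. Of all probes, 7.55% had no overlap and 3.93% had none and were lower in TG. The SE of the 12 fold changes ran from 0.12 to 0.21, and their 95% intervals together spanned 0.55-fold to 1.49-fold. RNA of whole calvaria was measured, so a difference in endothelial cell number and one in RNA per cell could not have been told apart.

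Among the receptors, Flt1 had normalised log2 values of 9.28, 9.15 and 9.33 in WT and 9.11, 9.46 and 9.46 in TG. TG replicate 1 was the lowest of all 6 arrays and the other TG arrays were the highest, so the groups overlapped. The log2 fold change of Flt1 was 0.09 ± 0.14 (SE; 95% interval -0.23 to 0.41), with an adjusted p of 0.9996 in limma. Tie1, the orphan partner of TIE2, had 7.06, 6.82 and 7.07 in WT and 6.85, 7.41 and 7.26 in TG. Here too TG replicates 2 and 3 were the highest arrays, and TG replicate 1 lay within the WT range. The Tie1 difference was 0.19 ± 0.17 (95% interval -0.20 to 0.57). On leaving out 1 array it ran from 0.07 (without TG replicate 2) to 0.35 (without TG replicate 1), and Flt1 from 0.03 (without TG replicate 3) to 0.21 (without TG replicate 1). TG replicates 2 and 3 also differed from the other arrays in sex-linked transcripts. Xist, the RNA of the inactive X chromosome, had 9.17 and 9.34 on them and 4.49 to 5.12 on the others. The Y-linked gene Kdm5d had 4.69 and 4.43 on them and 6.99 to 7.36 on the others. This is the pattern of females on TG replicates 2 and 3 and of males on TG replicate 1 and every WT array. Sex and group were thus partly shared in each comparison of TG with WT, and their parts cannot be separated here. Signal from the Y-linked genes Kdm5d and Uty, averaged, was then entered in the fit as a covariate. Flt1 was -0.18 ± 0.19 and Tie1 -0.15 ± 0.22 in that fit, with adjusted p-values of 0.950 and 0.968 in limma. With TG replicates 2 and 3 low in Kdm5d, the group difference in that fit rests largely on TG replicate 1.

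Tek, the angiopoietin receptor gene, had 8.52, 8.41 and 8.67 in WT and 8.24, 8.27 and 8.48 in TG. TG replicates 1 and 2 were below every WT array, and TG replicate 3 was above 1 of them. Its log2 fold change was -0.21 ± 0.13 (95% interval -0.50 to 0.09), a 0.867-fold level in TG. The co-receptor gene Eng had 8.996, 9.01 and 9.31 in WT and 9.07, 9.01 and 8.86 in TG, with WT replicate 3 the highest array. The difference in Eng was -0.12 ± 0.13 (95% interval -0.44 to 0.19), with an SD of 0.18 in WT and 0.11 in TG. Without WT replicate 3 it was -0.02.

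The groups overlapped for every detected probe of the adhesion and surface genes. Pecam1 on its brightest probe, ILMN_2700982, had 8.68, 9.19 and 8.87 in WT and 9.12, 8.70 and 9.07 in TG. Both groups covered nearly the same range, with a log2 fold change of 0.05 ± 0.18. Its second tested probe, ILMN_3147074, had 8.13, 7.96 and 8.14 in WT and 8.24, 8.05 and 8.47 in TG, a difference of 0.18 ± 0.14 (95% interval -0.15 to 0.50). The order of the arrays differed between these Pecam1 probes (r = 0.203 over 6 arrays), and WT replicate 2 was the highest on one and the lowest on the other. Cdh5 on its brightest probe had 8.51, 8.62 and 8.65 in WT and 8.53, 8.51 and 8.71 in TG. This was the narrowest estimate of the set, at -0.01 ± 0.12 with a 95% interval of -0.28 to 0.26. The second Cdh5 probe had -0.05 ± 0.21 (95% interval -0.53 to 0.43); its highest value, 7.34 on WT replicate 3, lay apart from the 6.53 to 6.90 of the other 5 arrays. Emcn had 9.74, 9.77 and 9.84 in WT and 9.59, 9.70 and 10.001 in TG. The WT arrays lay inside the TG range, and the difference was -0.02 ± 0.14 (95% interval -0.34 to 0.30). With the Y-linked covariate it was -0.25 ± 0.2.

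Of the SoxF factors, Sox17 on probe ILMN_2747986 had 6.71, 6.87 and 6.82 in WT and 6.04, 6.26 and 6.47 in TG. All TG values were below all WT values, and it was the single endothelial probe whose groups did not overlap. It had 6.80 ± 0.08 in WT and 6.26 ± 0.22 in TG (SD, n = 3). The log2 fold change of Sox17 was -0.54 ± 0.14 (95% interval -0.87 to -0.22), 0.686-fold, with an unadjusted p of 0.00484 and an adjusted p of 0.9996 in limma. The separation was seen after background correction and normalisation and not in the deposited linear intensities, which were 209, 238 and 203 in WT and 169, 176 and 203 in TG. TG replicate 3 (203.4) was just above WT replicate 3 (202.6). Sox17 ILMN_2747986 was dim, at 1.41 to 1.95 times the median negative control of its array. Without background correction the log2 fold change was -0.25, and in the log2 values the authors deposited it was -0.18. Those deposited log2 values also did not overlap, at 8.03, 8.09 and 8.07 in WT and 7.81, 7.87 and 7.94 in TG. The second Sox17 probe, ILMN_2784446, had 5.70, 5.87 and 5.85 in WT and 5.51, 5.83 and 5.87 in TG. Its groups overlapped, and the difference was -0.07 ± 0.14, or -0.36 ± 0.18 with the Y-linked covariate. Over the 6 arrays both Sox17 probes had r = 0.629, and TG replicate 1 was the lowest array on each. The mean of the Sox17 probes gave -0.31. Sox18 had 8.62, 9.05 and 9.19 in WT and 8.79, 8.80 and 8.95 in TG. The TG arrays lay inside the WT range, with a difference of -0.11 ± 0.16.

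**Figure D2:**
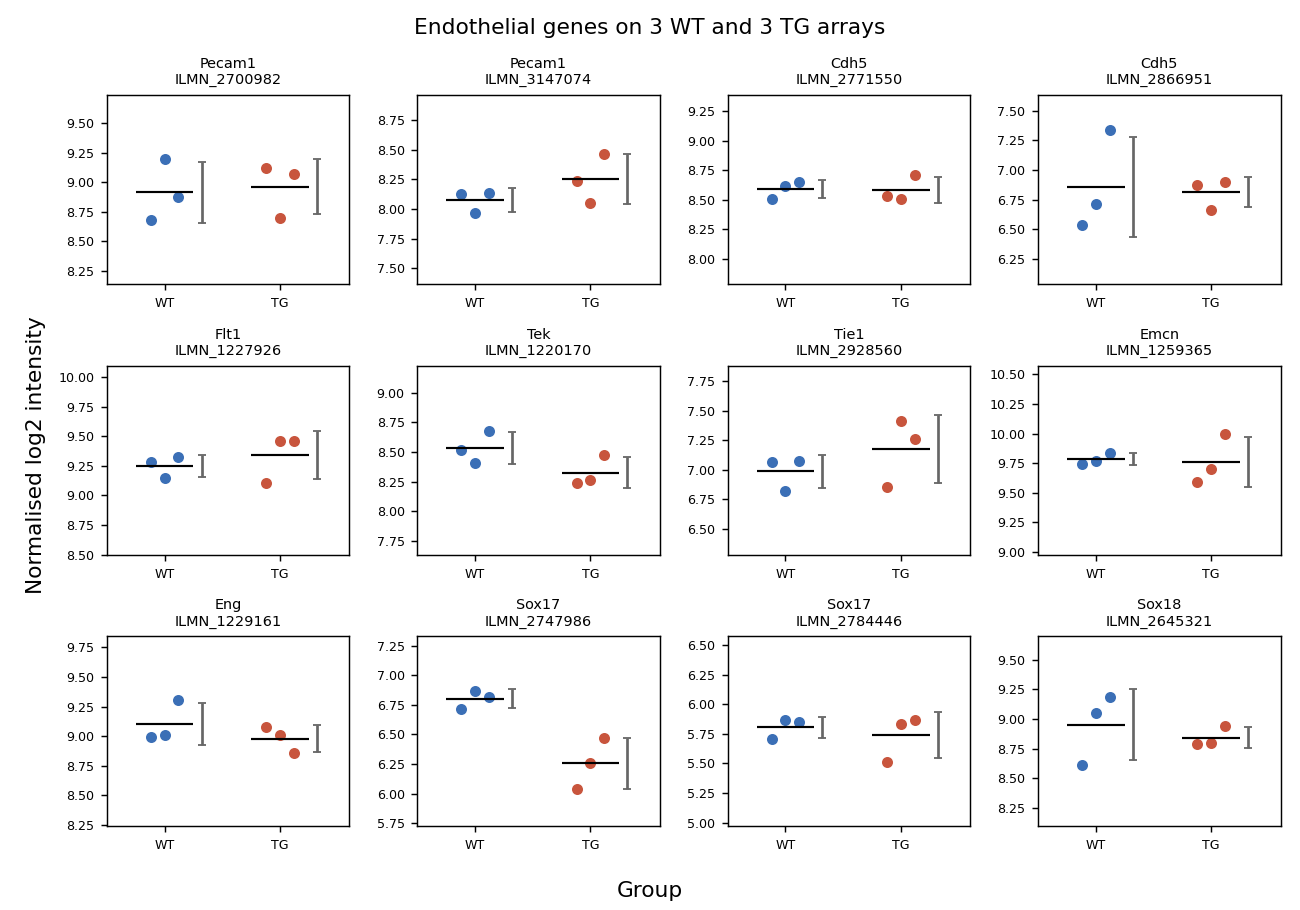
Normalised log2 intensity of the 12 detected probes (y axis, the same span of 1.6 units in each panel) on 3 WT (blue) and 3 TG (red) arrays, with the group mean as a line and ± 1 SD as a bar (n = 3). The groups overlap in 11 panels and separate in the panel of Sox17 ILMN_2747986.

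**Figure D3:**
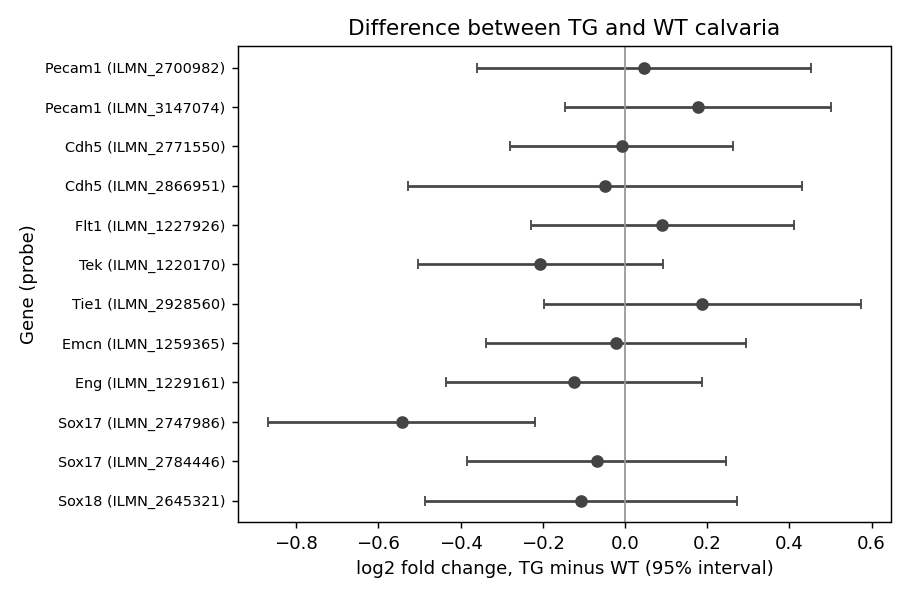
Log2 fold change (TG minus WT) of the 12 detected probes with 95% intervals from limma. The interval of Sox17 ILMN_2747986 (-0.87 to -0.22) lies below 0, and the intervals of the other 11 probes span 0.

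Endothelial signal varied between arrays of the same group. Averaged over the 9 genes by their brightest probes and centred on the mean of all arrays, the log2 values were -0.05, 0.03 and 0.13 on WT replicates 1 to 3 and -0.14, -0.05 and 0.08 on TG replicates 1 to 3. The group means were 0.04 ± 0.09 in WT and -0.04 ± 0.11 in TG (SD, n = 3), a difference of -0.08 that was smaller than either SD. WT replicate 3 was the highest array for 4 of the 12 probes and TG replicate 3 for 4, and TG replicate 1 was the lowest for 5. The 9 genes did not form a single pattern over the arrays. Of their 36 pairs, 8 had a Pearson r above 0.5 and 13 had an r below 0, with a median of 0.241 over the 6 arrays. Relative to the group means, so without the difference between WT and TG, 14 pairs were above 0.5 and the median was 0.438. The highest was Flt1 with Tie1 (r = 0.963, and 0.966 relative to the group means), followed by Cdh5 with Emcn (0.858 on both) and Tek with Sox17 (0.791). Tek and Sox17 both had negative log2 fold changes, and their r was 0.544 relative to the group means, where Emcn with Sox17 came second at 0.919 (0.48 over all arrays). The lowest was Pecam1 with Tie1 (-0.633, and -0.775 relative to the group means). These values are descriptions over 6 arrays that share a normalisation, and each rests on few points.

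Other endothelial genes varied over the arrays in a similar way. Of 26 further endothelial genes 21 were measured, and 16 of these had an r above 0.5 with the 9-gene mean (76.2%), against 15.7% of the 11195 other genes tested. Of the 12 measured genes of a list for mural cells, the pericytes and smooth muscle around vessels, 6 did so (50%). That list includes Pdgfb and Des, which are not particular to mural cells. The list mean of the 21 further endothelial genes correlated with the 9-gene mean at r = 0.927 (rho = 0.829) over the 6 arrays. The gene most like the 9-gene mean was Rasip1, a Ras-interacting protein gene needed for vessel lumen formation, with r = 0.996, at 8.17, 8.30 and 8.51 in WT and 8.01, 8.18 and 8.38 in TG. The next were Mir99ahg (0.991), Sirpb1a (0.987), Lcp1 (0.984) and Sesn1 (0.983), the highest of 9490 genes with an SD over arrays of at least 0.1. With 6 arrays and so many genes, high values arise readily, and nothing on shared function is read from them.

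Markers of other cells also varied over these arrays. The list means of mural cells (12 genes) and leukocytes (6 genes) correlated with the 9-gene mean at 0.812 and 0.735, and skeletal muscle (9 genes) at 0.554. Mural values were -0.11, 0.09 and 0.11 in WT and -0.22, 0.08 and 0.06 in TG, with summed intensities of 17144 to 20031 and 15458 to 18682. TG replicate 1, where the endothelial mean was lowest, also had the lowest means of the mural list, of leukocytes (-0.19) and of skeletal muscle (-1.27). The low mural mean there came mostly from Des (9.14, against 10.29 to 12.04 on the other arrays) and Myh11 (4.81, against 5.18 to 6.31). Pdgfb, Abcc9 and Kcnj8 were also lowest on TG replicate 1, by less, and Acta2 (13.77) and Mcam (8.80) were highest on it. Summed intensity of the leukocyte list was 8376 to 9746 in WT and 7811 to 9933 in TG, and its defining gene Ptprc, encoding CD45, was detected on at most 1 array by any of its 4 probes. Leukocyte log2 fold changes were negative for 5 of 6 genes with a median of -0.11. For skeletal muscle, summed intensity was 71508 to 165977 in WT and 42620 to 123773 in TG, and all 9 genes were negative with a median of -0.36. The muscle list means were -0.48, 0.98 and -0.01 in WT and -1.27, 0.57 and 0.215 in TG, so the arrays overlapped. These genes mark 1 tissue, so their shared sign is not 9 separate results. Platelet and megakaryocyte markers, cells that share Pecam1, had summed intensities of 1603 to 2240 in WT and 1785 to 2269 in TG. Of these 6 genes 5 were positive, with a median of 0.12. Ppbp, Itga2b, Gp9 and Gp5 were dim and detected on 4 or 5 arrays. The other tested probes of Ppbp (-0.08) and Itga2b (-0.20) were negative. Chondrocyte markers were positive for 10 of 10 genes (median 0.35), with r = -0.356 to the 9-gene mean. Their list means also overlapped, at 0.12, -0.11 and -0.86 in WT and -0.36, 0.99 and 0.23 in TG. Erythroid markers were negative for 3 of 4 (median -0.45; r = -0.041) and osteoblast markers for 5 of 8 (median -0.14; r = -0.08). No member of these lists was called, and their part in the endothelial values was not tested.

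**Figure D4:**
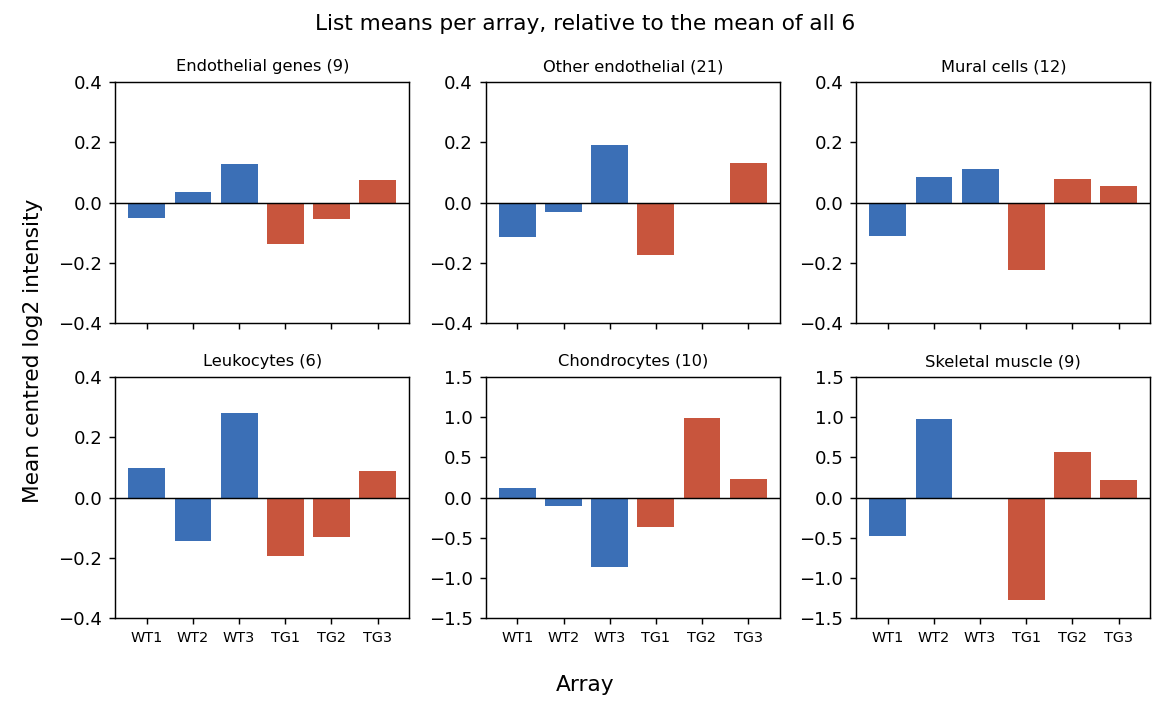
Mean centred log2 intensity per array (bars, WT in blue and TG in red) for the 9 measured endothelial genes and 5 other lists, with the number of genes in brackets; the top row and the leukocyte panel span ± 0.4 and the other panels ± 1.5. TG replicate 1 is the lowest array for endothelial genes (-0.14), other endothelial genes, mural cells, leukocytes and skeletal muscle.

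Other genes of the vessel wall and its signals were set beside these 10. The 21 further endothelial genes had 9 positive and 12 negative log2 fold changes with a median of -0.02, and 0 were called. Plvap, encoding the diaphragm protein of fenestrated endothelium, had -0.20 ± 0.16, Cd34 -0.16 ± 0.17, Rasip1 -0.14 ± 0.15 and Nos3, the endothelial nitric oxide synthase gene, 0.12 ± 0.14, with 0.27 and -0.07 on its other tested probes. Sox7, the remaining SoxF gene, had 0.03 ± 0.19 (0.16 and -0.05 on its other tested probes), with WT replicate 3 (7.90) above the 7.25 to 7.57 of the other arrays. Ptprb, the phosphatase gene that opposes TIE2, had -0.06 ± 0.22. The markers Calcrl, Clec14a, Ecscr and S1pr1 were, like Kdr, detected on 0 of 6 arrays, and Tal1 on 2.

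Of the VEGF and angiopoietin list 12 of 15 genes were measured, 8 positive and 4 negative, with a median of 0.07 and 0 called. Vegfa, the main ligand of VEGFR2, had 10.22, 9.84 and 9.89 in WT and 9.66, 9.99 and 9.89 in TG. Its groups overlapped, with -0.14 ± 0.15. The VEGFR1 ligand gene Pgf had -0.32 ± 0.19, and the lymphatic ligand gene Vegfc had 0.07 ± 0.23. Angpt1, the TIE2 agonist gene, had -0.13 ± 0.14. Angpt2, whose product can antagonise TIE2, had 0.24 ± 0.14 on its brightest probe and -0.42 on its other tested probe, so the probes differed in sign. Nrp1, a VEGF co-receptor gene, had 0.19 ± 0.14, with 0.21 and 0.06 on other tested probes.

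Arterial, venous and lymphatic genes had 8 positive and 1 negative values among 9 measured of 12, with a median of 0.07 and 0 called. Gja5, the arterial connexin 40 gene, had 5.79, 6.35 and 6.67 in WT and 6.56, 6.81 and 6.71 in TG. WT replicate 1 lay apart, the groups overlapped, and the difference was 0.42 ± 0.22 (limma, adjusted p = 0.9996), with 0.30 and 0.49 on other tested probes. The WT replicate 1 mean of this list, -0.29, was the lowest of the 6 arrays. Lyve1, a hyaluronan receptor gene of lymphatic vessels and some macrophages, had 0.48 ± 0.45, Efnb2 0.17 ± 0.14 and the kinase gene Bmx 0.16 ± 0.12. The VEGFR3 gene Flt4 and the arterial Notch ligand gene Dll4 were detected on 0 of 6 arrays. Of the mural list 12 of 13 genes were measured, 3 positive and 9 negative, with a median of -0.08 and 0 called. Cspg4, the pericyte NG2 gene, had 8.88, 8.64 and 8.67 in WT and 9.21, 9.26 and 8.87 in TG, where TG replicate 3 fell just below WT replicate 1. Its difference was 0.38 ± 0.15 (limma, unadjusted p = 0.0311, adjusted p = 0.9996). Abcc9 had -0.21 ± 0.15, Notch3 -0.18 ± 0.15 and Mcam 0.13 ± 0.12, the last with -0.05 and -0.15 on other tested probes.

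**Figure D5:**
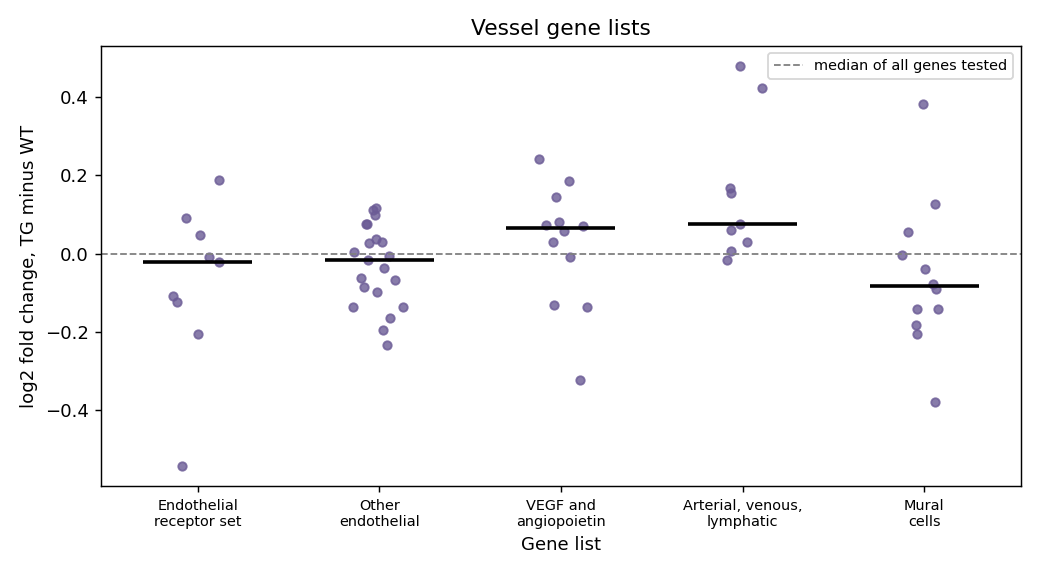
Log2 fold change (TG minus WT) of each measured gene in the 9-gene endothelial set and 4 other vessel lists, with the list median as a bar and the median of all 11204 genes tested (-0.001) as a dashed line. The list medians lie between -0.08 and 0.07, and Sox17 is the lowest point.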

How the data were processed

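Illumina mouse bead arrays measured biotin-labelled calvarial RNA of 3 WT and 3 TG samples. The deposited table without normalisation held a linear bead intensity and a detection p-value per probe, per the file headers. The authors' deposited log2 values were made with lumi, per the submitters' processing notes; the sources used here do not give its version or steps. The header of the control rows numbers the replicates 4 to 6 and tags them P1, unlike the sample labels; columns were matched by the sample labels. The last 936 of 974 control rows were taken as negative controls: detection p-values recomputed from them differed by at most 0.0139.

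With limma 3.58.1 in R 4.3.3, intensities were background-corrected (normexp with negative controls, offset 16), quantile-normalised and tested on the log2 scale with lmFit and eBayes, two-sided, at a threshold of 0.05 after Benjamini-Hochberg adjustment. Tests were run on probes detected (p-value under 0.05) on 3 or more of 6 arrays (20632; 17702 with a symbol). Median intensity was 125.1 to 132.6 and 19680 to 21412 probes were detected per array; the number of arrays limits precision. Within groups arrays correlated at 0.982 to 0.989, and between groups at 0.98 to 0.989. A gene was represented by its brightest tested probe. Of 45281 probes, 34885 had 1 symbol in the platform annotation, 18 several and 10378 none; all 10 genes were found in RefSeq's table.

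Genes named besides the 10 were the 4 with the smallest p of each vessel list, fixed partners (Vegfa, Vegfc, Pgf, Angpt1, Angpt2, Sox7, Flt4, Ptprb and Nrp1) and the 5 most like the 9-gene mean; other undetected genes, list markers and sex-linked genes are named beside the result they touch. Members and lists were chosen with earlier results of these data known. The fits were repeated with the authors' values, without background correction, with an offset of 50, with cyclic loess or median scaling, with 2 other filters, a Y-linked covariate, a replicate block, robust trended variance, a gene's probes averaged, and each array left out. The pipeline was tested on simulated data.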

Additional observations from a re-analysis of the deposited data

How the results depend on the processing

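Under all 16 alternatives that refitted the probes, 0 of the 12 endothelial probes were called in limma, with 1 at an unadjusted p under 0.05 in each. Over all probes the count of calls was 0 except without TG replicate 1, where it was 2 (range 0 to 2 on leaving out 1 array). Of 195 recomputed log2 fold changes, 177 kept their sign. Sox17 ILMN_2747986, Tek, Eng and Pecam1 ILMN_3147074 kept theirs throughout, but on leaving out 1 array Eng ran from -0.178 to -0.0225 (without WT replicate 3), Pecam1 ILMN_3147074 from 0.0699 (without TG replicate 3) to 0.277 (without TG replicate 2) and Tek from -0.282 to -0.135; Sox17 ran from -0.84 with the Y-linked covariate to -0.18 in the authors' values, and from -0.65 to -0.43 on leaving out 1 array. The median over the 9 genes was -0.18 with the Y-linked covariate, which also turned Flt1 to -0.18 and Tie1 to -0.15 and gave -0.249 for Emcn, -0.364 for Sox17 ILMN_2784446, -0.267 for Sox18, -0.322 for Tek, -0.0983 for Cdh5 ILMN_2771550, -0.0261 for Eng and 0.145 for Pecam1 ILMN_2700982; with TG replicates 2 and 3 the only arrays low in Kdm5d, that covariate is largely shared with the group. In the fit with the Y-linked covariate, the group difference rests largely on TG replicate 1. Median scaling turned Cdh5 ILMN_2771550 to 0.0191 and Emcn to 0.00298, and gave a median of 0.00298. On leaving out 1 array, Cdh5 ILMN_2771550 ran from -0.0704 to 0.0293 (0.0163 and 0.0293 without TG replicates 1 and 2, 0.006 and 0.0207 without WT replicates 2 and 3), Cdh5 ILMN_2866951 from -0.21 to 0.19 (0.0254 without TG replicate 2, 0.191 without WT replicate 3) and Emcn from -0.14 to 0.06 (0.064 and 0.0109 without TG replicates 1 and 2, 0.00738 without WT replicate 3). Pecam1 ILMN_2700982 ran from -0.07 to 0.19 (-0.0328 and -0.00693 without TG replicates 1 and 3, -0.0703 without WT replicate 1), Sox17 ILMN_2784446 from -0.13 to 0.04 (0.0435 without TG replicate 1) and Sox18 from -0.28 to 0.01 (0.0113 without WT replicate 3). The median over the genes ran from -0.07 to 0.01. The cause was not tested.

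With the replicate block, 0 probes were called and Sox17 stayed at -0.54 (unadjusted p = 0.00607, limma). Deviations of same-numbered arrays correlated at 0.262, 0.151 and -0.169. So few values cannot show whether same-numbered samples are paired, and the labels do not state a pairing. Dim signal limits Kdr, whose fold changes in the fit without the filter rest on undetected signal.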
